A study of Mus musculus with 32 samples.

Results

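The comparison followed the wild-type (WT) mouse brain between the embryonic stages E12.5 and E16.5, named by days of gestation. Its members are the 4 WT libraries of each of these stages, 8 of the 32 libraries in the series, taken by their labels, with every gene in the count tables. The whole series holds WT brains and brains lacking Dhcr7 (KO, Dhcr7-/-) at E12.5, E14.5, E16.5 and the day of birth (PND0), 4 libraries per group. The 8 brains described here were labelled Dhcr7+/+ on the C57BL/6J strain and the labels name no treatment. The labels call the tissue brain and the series' design calls it whole brain. Litter and sex are not among the labels, nor whether a library is 1 animal. If the replicates are not separate animals, p-values measure only the spread between these samples, which may be technical. RNA was enriched for polyadenylated transcripts and read as paired ends on an Illumina instrument.

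In the embryonic brain, radial glia line the ventricles and divide, first to enlarge the pool of progenitors and then to give rise to neurons, directly or through intermediate progenitors that express proneural transcription factors. New neurons leave the cell cycle, migrate outward, grow axons and begin to make receptors, channels and the proteins of synapses. Later in gestation the same progenitors turn to producing astrocytes and oligodendrocyte precursors. In bulk tissue, a change in the number of cells of a type and a change in the RNA per cell cannot be told apart.

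Total counts were 15.54 to 27.41 M per library at E12.5 and 14.9 to 16.58 M at E16.5, and 25324 to 27030 genes had at least 1 count. Levels are given in CPM, counts scaled to 1 M of the library's TMM-adjusted total. Fold changes are log2 differences, E16.5 minus E12.5, with their standard error (SE), and "rose", "fell" or "passed" refers to a Benjamini-Hochberg adjusted p under 0.05 in edgeR's quasi-likelihood test over all genes tested. Of 17301 genes tested, 10243 (59.2%) passed, 5055 (29.2%) higher and 5188 (30.0%) lower at E16.5, and the median over all genes tested was -0.02. Of these, 1975 (11.4%) were over 2-fold higher and 1439 (8.32%) over 2-fold lower. The groups did not overlap for 9591 genes (55.4%). The first principal component held 75.8% of the variance and separated the stages, with scores of -80.9 to -34 at E12.5 and 50.1 to 70.2 at E16.5. The counts of each gene list below are read against these shares of all genes. Of the genes past the threshold with levels or a fold change given below, all but Scn3a had every library of 1 stage above every library of the other. The rule that named genes favours large and even changes, so this is not a result about all genes.

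The libraries also differed in the summed levels of genes that mark other tissues or brain regions. Whether different tissue was taken was not tested. The 18 genes of the meninges and mesenchyme list summed to 4391, 2755, 1778 and 2348 CPM in E12.5 replicates 1 to 4, and to 846 to 1240 CPM at E16.5. Muscle, cartilage and skin genes summed to 339 to 1017 CPM at E12.5, highest in replicate 1, and to 52.1 to 97.6 CPM at E16.5. Pituitary genes summed to 15.0 to 55.3 CPM and 1.97 to 5.33 CPM. The 24 Hox genes, which mark the caudal hindbrain and spinal cord, summed to 26.3 CPM in E12.5 replicate 1 and to at most 7.38 CPM in the other libraries, and none of them passed the filter on low counts. Region genes also differed between E16.5 libraries. Pou4f1, a factor of midbrain and sensory neurons, measured 52.1, 63.0, 59.8 and 63.9 CPM at E12.5 and 1.84, 26.8, 26.9 and 29.6 CPM at E16.5, so E16.5 replicate 1 was far below its group. Pou4f1 passed as lower with all libraries, but the call was lost without any 1 library other than E16.5 replicate 1 (adjusted p from 0.051 to 0.113). Pax3, a dorsal patterning gene, was at 0.0680, 10.8, 4.90 and 7.86 CPM in the E16.5 libraries, with replicate 1 lowest again. The share of counts on CT010467.1, which encodes ribosomal RNA, was 3.75% in E16.5 replicate 1 and 0.267% to 0.626% in the other 7 libraries. The part of these differences in the results below was not tested, but the values without single libraries are given where they change a call or move a count.

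**Figure D1:**
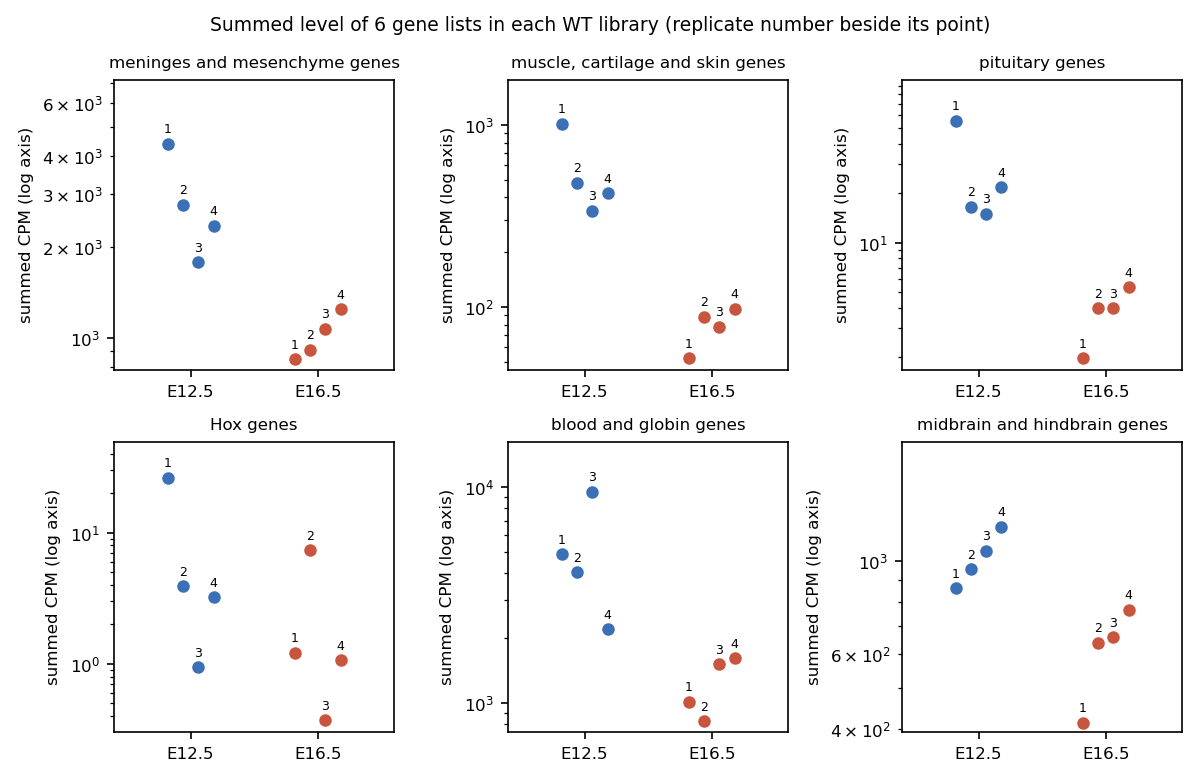
Summed CPM (log axis) of 6 gene lists for tissues other than neural cells or for a brain region, with 1 point per WT library, numbered by replicate, at E12.5 and E16.5. E12.5 replicate 1 is highest for mesenchyme (4391 CPM) and for muscle, cartilage and skin (1017 CPM), E12.5 replicate 3 for blood (9538 CPM), and E16.5 replicate 1 is lowest for midbrain and hindbrain (414 CPM).

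Genes of dividing cells fell. Of 44 cell cycle and DNA replication genes, 43 fell and none rose, with a median of -1.79, and 39 fell by more than 2-fold. The exception was Cdk6, a G1 kinase, at 36.0, 37.6, 37.5 and 41.2 CPM at E12.5 and 40.8, 28.0, 51.1 and 43.8 CPM at E16.5 (log2 fold change 0.10). Ccnd1, the cyclin D1 gene of G1 entry, fell most. It measured 224, 227, 184 and 257 CPM at E12.5 and 33.0, 33.8, 41.0 and 37.9 CPM at E16.5 (log2 fold change -2.61, SE 0.114, adjusted p = 8.65e-06), and the lowest E12.5 library was far above the highest E16.5 library. Cdc20, an activator of the anaphase-promoting complex, measured 145.3, 155, 116 and 150.0 CPM at E12.5 and 28.9, 23.7, 39.9 and 32.5 CPM at E16.5 (log2 fold change -2.18, SE 0.155, adjusted p = 1.19e-05). Kif20a, a kinesin of the cleavage furrow, fell to a similar degree, from 64.9 to 80.6 CPM at E12.5 to 12.6 to 20.7 CPM at E16.5 (log2 fold change -2.17). Among replication genes, Rrm1, a subunit of ribonucleotide reductase, went from 215 to 238 CPM at E12.5 to 83.6 to 95.8 CPM at E16.5 (log2 fold change -1.32), and the replication clamp gene Pcna from 237 to 272 CPM at E12.5 to 113 to 140.3 CPM at E16.5 (log2 fold change -0.99). The fall was smaller for Ccnd2 (log2 fold change -0.90) and Cdk4 (log2 fold change -0.90), which were at 357, 268, 486 and 462 CPM and 330.0, 302, 367 and 385 CPM in the E16.5 libraries. The list's count was 43 of 44 without E12.5 replicates 1 and 2, the libraries with the most mesenchyme RNA, and 43 of 44 without E16.5 replicate 1.

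Promoters of this group shared sequence elements. RefSeq promoter windows of build GRCm38.p6, from 250 bases before to 50 bases after the start site, were at hand for 34 of the 44 genes (35 windows) and searched on both strands. The letters TTTGAA, the core of the cell cycle genes homology region (CHR), were in 40.0% of these windows, against 17.9% of all 32851 windows and 12% of those of tested genes. The letters CCAAT were in 71.4%, against 37.4% of all windows and 37.3% of those of tested genes. TTTNNCGC, an E2F core, was in 31.4%, against 5.17% of all windows, 7.74% of those of tested genes and 10.1% of those of genes lower at E16.5. In the windows of synaptic vesicle and release genes these shares were 17.6%, 20.6% and 8.82%. The overlap of a match with a match to another of these motifs occurred 2 times in the cell cycle windows. The match to these letters is a description and does not show that a protein binds there. The 110 bases before the start site are shown for 4 mitotic genes that hold both CCAAT and CHR matches, with the matches in capitals on whichever strand they lie (ATTGG and TTCAAA are the reverse complements). These genes were chosen after their values were seen.
Cdc20, chr4:118437344-118437453, minus strand: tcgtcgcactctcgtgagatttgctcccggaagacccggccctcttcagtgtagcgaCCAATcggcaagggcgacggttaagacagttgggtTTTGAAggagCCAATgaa
Ube2c, chr2:164769819-164769928, plus strand: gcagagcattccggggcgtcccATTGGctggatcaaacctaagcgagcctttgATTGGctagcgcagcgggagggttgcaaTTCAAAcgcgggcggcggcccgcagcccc
Cdk1, chr10:69352913-69353022, minus strand: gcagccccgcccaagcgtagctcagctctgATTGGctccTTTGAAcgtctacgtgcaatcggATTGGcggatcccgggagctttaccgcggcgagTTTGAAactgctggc
Top2a, chr11:99024190-99024299, minus strand: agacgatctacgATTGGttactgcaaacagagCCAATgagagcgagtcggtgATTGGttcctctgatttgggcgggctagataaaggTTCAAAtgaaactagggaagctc
A CHR match lies near the 3′ end of each of these 4 sequences, and Cdk1 has another upstream. All 4 genes fell: Ube2c, the ubiquitin-conjugating enzyme that works with the anaphase-promoting complex, went from 95.9 to 127 CPM at E12.5 to 19.8 to 36.4 CPM at E16.5 (log2 fold change -1.99). Cdk1, the mitotic kinase, went from 90.1 to 108 CPM at E12.5 to 27.6 to 42.2 CPM at E16.5 (log2 fold change -1.46). Top2a, a DNA topoisomerase of dividing cells, went from 538 to 614 CPM at E12.5 to 148 to 203 CPM at E16.5 (log2 fold change -1.68).

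Progenitor genes split. Of 30 radial glia and neural progenitor genes, 20 fell and 6 rose (median -0.86). Notch targets were among those that fell: Hes5 measured 35.2, 47.1, 41.5 and 58.4 CPM at E12.5 and 13.4, 12.7, 10.8 and 14.6 CPM at E16.5 (log2 fold change -1.83, SE 0.160, adjusted p = 2.19e-05), and Hes1 went from 32.1 to 40.9 CPM at E12.5 to 8.50 to 12.3 CPM at E16.5 (log2 fold change -1.78). The intermediate filament genes of neural stem cells fell too, Nes from 554 to 807 CPM at E12.5 to 195 to 251 CPM at E16.5 (log2 fold change -1.61) and Vim from 878 to 1021 CPM at E12.5 to 286 to 393 CPM at E16.5 (log2 fold change -1.48). Sox3, a transcription factor of neural progenitors, fell most (log2 fold change -2.11), while its relative Sox2 fell by less (log2 fold change -0.78). Fabp7, Slc1a3 and Tnc were among the 6 that rose. Fabp7, a fatty acid binding protein, measured 214, 283, 368 and 317 CPM at E12.5 and 657, 593, 493 and 591 CPM at E16.5 (log2 fold change 0.98, SE 0.154, adjusted p = 0.000487). Slc1a3, the glutamate transporter GLAST, went from 71.1 to 110.0 CPM at E12.5 to 179 to 196 CPM at E16.5 (log2 fold change 1.13), and Tnc, the matrix protein tenascin C, from 44.7 to 121 CPM at E12.5 to 186 to 221 CPM at E16.5 (log2 fold change 1.46). For all 3 of these, every E16.5 library was above every E12.5 library.

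Of 21 tested genes of intermediate progenitors and proneural factors, 11 fell and 4 rose (median -0.83). Neurog1, a proneural factor, measured 14.2, 20.8, 14.4 and 27.0 CPM at E12.5 and 1.36, 1.94, 1.24 and 1.67 CPM at E16.5 (log2 fold change -3.62, SE 0.262, adjusted p = 1.2e-05). The Notch ligand genes Dll3 and Jag1 fell (log2 fold change -1.82 and -1.16), while Jag2 rose (log2 fold change 0.79). Neurod6, made by postmitotic excitatory neurons of the cortex, rose: it measured 25.3, 66.8, 119.6 and 58.1 CPM at E12.5 and 454, 284, 449 and 437 CPM at E16.5 (log2 fold change 2.59, SE 0.390, adjusted p = 0.000375). Its relative Neurod2 rose from 40.0 to 129 CPM at E12.5 to 208 to 453 CPM at E16.5 (log2 fold change 1.98). E16.5 replicate 2 was lowest in its group for both Neurod6 and Neurod2, and E12.5 replicate 1 was lowest in its group.

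Among 18 regulators of developmental timing and growth, 10 fell and 4 rose. Hmga2, a chromatin protein of early stem cells (ENSMUSG00000056758.14, chromosome 10, 120361275 to 120476469, minus strand), measured 258, 141, 66.7 and 122 CPM at E12.5 and 2.58, 4.72, 5.52 and 5.06 CPM at E16.5 (log2 fold change -5.03, SE 0.437, adjusted p = 2.12e-05). It was highest in E12.5 replicate 1, and the log2 fold change was -4.40 without E12.5 replicates 1 and 2. The mRNA-binding proteins Igf2bp1, Igf2bp2 and Igf2bp3 fell with log2 fold changes of -2.09, -1.70 and -1.64. Lin28a, a repressor of let-7 microRNA maturation, was low at both stages and fell (2.25 to 3.63 CPM at E12.5 to 0.434 to 0.933 CPM at E16.5, log2 fold change -2.23), while its relative Lin28b was at 21.0, 26.6, 25.3 and 25.7 CPM at E12.5 and 21.8, 33.3, 22.6 and 24.4 CPM at E16.5 (log2 fold change 0.05, adjusted p = 0.773). The nuclear factor I genes, which act in late progenitors and glial onset, rose: Nfix measured 99.8, 134, 138 and 128 CPM at E12.5 and 559, 273, 541 and 374 CPM at E16.5 (log2 fold change 1.81, SE 0.217, adjusted p = 0.000106), and Nfib went from 156 to 236 CPM at E12.5 to 371 to 598 CPM at E16.5 (log2 fold change 1.37).

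**Figure D2:**
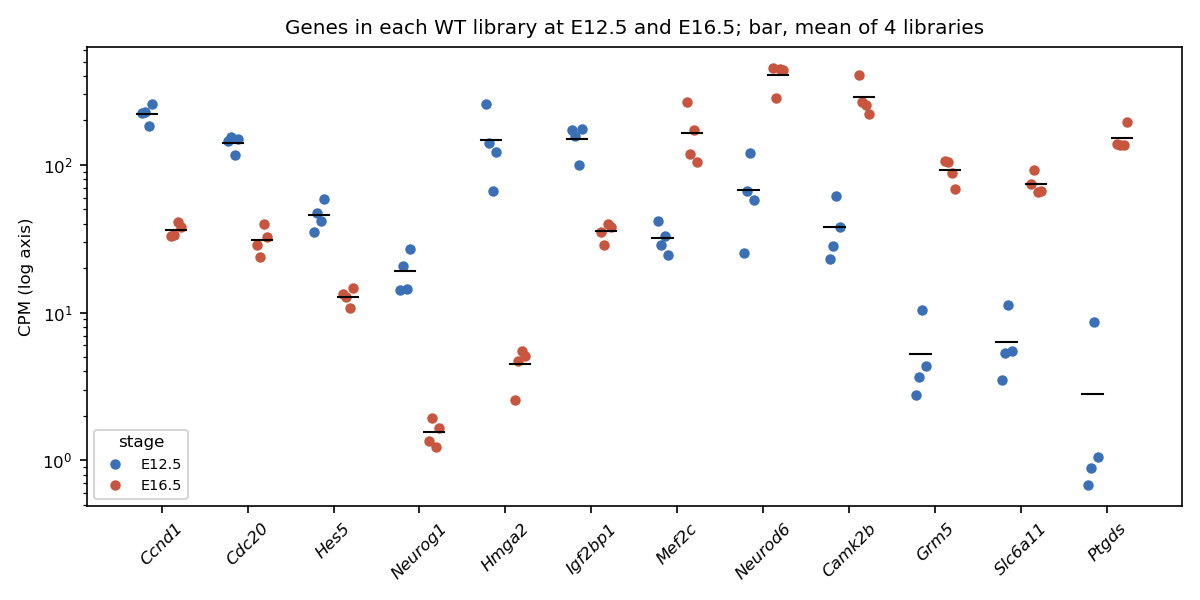
CPM (log axis) of 12 genes in each WT library, with 1 point per library and a bar at the mean of the 4 libraries of a stage. Ccnd1, Cdc20, Hes5, Neurog1, Hmga2 and Igf2bp1 are lower in every E16.5 library than in any E12.5 library, and Mef2c, Neurod6, Camk2b, Grm5, Slc6a11 and Ptgds are higher.

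Of 28 genes of the neuronal cytoskeleton and early neurons, 18 rose and 5 fell (median 0.65). Mapt, the microtubule-associated protein tau, measured 294, 357, 649 and 460.5 CPM at E12.5 and 1999, 1805, 1530.1 and 1508 CPM at E16.5 (log2 fold change 1.96, SE 0.226, adjusted p = 8.37e-05). Tuba1a and Tubb2b, the tubulins of growing neurites, had the largest rise per kb of transcript of all protein-coding genes not encoded by mitochondria, from 2341 to 3744 CPM at E12.5 to 4819 to 6018 CPM at E16.5 for Tuba1a (log2 fold change 0.80) and from 1517 to 2779 CPM at E12.5 to 3560.1 to 3901 CPM at E16.5 for Tubb2b (log2 fold change 0.77). Those that fell included transcription factors that newborn neurons make only briefly. Nhlh1 measured 63.0, 68.7, 63.9 and 94.8 CPM at E12.5 and 9.72, 13.0, 12.8 and 12.4 CPM at E16.5 (log2 fold change -2.60, SE 0.155, adjusted p = 8.65e-06), and Ebf2 went from 51.7 to 61.0 CPM at E12.5 to 4.96 to 27.3 CPM at E16.5 (log2 fold change -1.95), highest at E16.5 in replicate 2. Without E12.5 replicates 1 and 2, 3 genes of the list fell and Ebf2 did not pass (adjusted p = 0.0544).

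Of 26 cortical layer and projection neuron genes, 14 rose and 1 fell (median 0.62). Mef2c, a transcription factor of maturing cortical neurons (ENSMUSG00000005583.16, chromosome 13, 83504034 to 83667080, plus strand), measured 41.8, 28.7, 33.0 and 24.7 CPM at E12.5 and 267, 118, 173 and 104 CPM at E16.5 (log2 fold change 2.37, SE 0.298, adjusted p = 0.000134). Within each stage it was highest in replicate 1 and lowest in replicate 4. Rorb, a nuclear receptor of layer 4, went from 5.99 to 7.90 CPM at E12.5 to 21.8 to 28.1 CPM at E16.5 (log2 fold change 1.82). The gene that fell was Lhx5 (log2 fold change -1.14), a factor of Cajal-Retzius cells and of caudal regions. It was at 12.6, 36.6, 23.1 and 30.6 CPM in the E16.5 libraries. The list had 15 higher and 1 lower without E16.5 replicate 1, and 14 higher and 2 lower without E12.5 replicate 1 or without E12.5 replicates 1 and 2. With length offsets or with 12 WT libraries in the fit, 2 also fell.

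Of 38 genes of GABA neurons, 20 rose and 7 fell. Striatal genes were among the largest rises. Ppp1r1b, which encodes the dopamine-regulated phosphatase inhibitor DARPP-32, went from 0.864 to 4.26 CPM at E12.5 to 15.1 to 40.3 CPM at E16.5 (log2 fold change 3.24). Drd1, the dopamine D1 receptor, measured 0.864, 1.07, 1.30 and 0.733 CPM at E12.5 and 9.79, 5.38, 7.81 and 7.39 CPM at E16.5 (log2 fold change 2.95, SE 0.248, adjusted p = 1.89e-05). The neuropeptide genes Npy, Tac1 and Sst rose with log2 fold changes of 2.73, 2.07 and 1.51, and Sst did not pass without E12.5 replicates 1 and 2 (adjusted p = 0.106). The progenitor factors of the ganglionic eminences fell, Gsx1 from 7.16 to 12.2 CPM at E12.5 to 1.80 to 3.33 CPM at E16.5 (log2 fold change -1.87) and Gsx2 from 6.48 to 12.2 CPM at E12.5 to 1.45 to 3.28 CPM at E16.5 (log2 fold change -1.78). Dlx1, present in both progenitors and young GABA neurons, was at 116, 129, 219 and 198 CPM at E12.5 and 267, 174, 216 and 209 CPM at E16.5 and did not pass (log2 fold change 0.39, adjusted p = 0.138). The count of lower genes in the list was 4 without E16.5 replicate 3, without E16.5 replicate 4 and with no filter on low counts.

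Of 31 genes of synaptic vesicles and transmitter release, 26 rose and none fell (median 1.37). Rph3a, a Rab3 effector on vesicles, measured 12.03, 12.2, 29.2 and 18.4 CPM at E12.5 and 107, 94.3, 78.9 and 72.5 CPM at E16.5 (log2 fold change 2.29, SE 0.271, adjusted p = 9.57e-05). Snap25, a SNARE protein of vesicle fusion, went from 34.4 to 54.9 CPM at E12.5 to 153 to 206 CPM at E16.5 (log2 fold change 2.03), and its partner Stx1a from 38.4 to 49.1 CPM at E12.5 to 92.6 to 114 CPM at E16.5 (log2 fold change 1.21). Vamp2, the vesicle SNARE, went from 131 to 155 CPM at E12.5 to 267 to 347 CPM at E16.5 (log2 fold change 1.07). Syn2, which tethers vesicles, rose more (log2 fold change 2.18).

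All 34 glutamate receptor and postsynaptic scaffold genes rose (median 1.52), 25 of them by more than 2-fold. Grm5, a metabotropic receptor (ENSMUSG00000049583.15, chromosome 7, 87584168 to 88134907, plus strand), measured 2.78, 3.67, 10.4 and 4.36 CPM at E12.5 and 106, 104, 88.5 and 68.3 CPM at E16.5 (log2 fold change 4.12, SE 0.352, adjusted p = 1.98e-05). Camk2b, a subunit of the calcium-dependent kinase of synapses, measured 23.3, 28.1, 62.0 and 37.8 CPM at E12.5 and 408, 266, 256 and 221 CPM at E16.5 (log2 fold change 2.93, SE 0.313, adjusted p = 5.63e-05). Gria2, which sets the calcium permeability of AMPA receptors, went from 119 to 305 CPM at E12.5 to 719 to 816 CPM at E16.5 (log2 fold change 1.99), and Grin2b, an NMDA receptor subunit, from 17.6 to 58.8 CPM at E12.5 to 185 to 307 CPM at E16.5 (log2 fold change 2.69). The smallest change was in Nlgn2 (log2 fold change 0.27), an adhesion protein of inhibitory synapses that was already at 331, 328, 354 and 389 CPM at E12.5. Without E12.5 replicates 1 and 2, 32 of the 34 rose. In 28 of the 34, E12.5 replicate 3 had the highest E12.5 value, and this library was also the nearest of its group to E16.5 on the first principal component.

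Of 16 tested GABA-A receptor and chloride transporter genes, 15 rose and none fell. Gabra5, a subunit of receptors outside synapses, measured 1.67, 2.21, 3.73 and 2.64 CPM at E12.5 and 41.1, 40.2, 26.5 and 30.5 CPM at E16.5 (log2 fold change 3.74, SE 0.238, adjusted p = 9.43e-06). The chloride exporter gene Slc12a5, whose product lowers chloride in neurons, measured 32.1, 39.6, 62.6 and 54.4 CPM at E12.5 and 139, 204, 134 and 149 CPM at E16.5 (log2 fold change 1.72, SE 0.213, adjusted p = 0.000122). The importer gene Slc12a2 was at 111, 95.5, 83.1 and 85.4 CPM at E12.5 and 82.2, 78.7, 87.6 and 79.7 CPM at E16.5 (log2 fold change -0.19, adjusted p = 0.0999), and passed as lower without E12.5 replicate 3 (adjusted p = 0.0394). Slc12a2 also passed as lower with 12 WT libraries in 1 fit (adjusted p = 0.0452) or with a sex-gene covariate (adjusted p = 0.0191). On a scale of CPM per kb, the log2 ratio of exporter to importer was -1.68 to -0.30 at E12.5 and 0.72 to 1.49 at E16.5, so the order of these genes changed between the stages in every library.

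Of 27 voltage-gated channel genes, 26 rose and none fell (median 1.24). Cacna1e, a calcium channel, went from 31.7 to 60.4 CPM at E12.5 to 198 to 235 CPM at E16.5 (log2 fold change 2.43). Scn2a, the sodium channel of the axon initial segment, measured 17.5, 23.9, 39.7 and 27.4 CPM at E12.5 and 107, 121, 104 and 94.1 CPM at E16.5 (log2 fold change 1.97, SE 0.208, adjusted p = 5.26e-05), while the fetal channel Scn3a rose by less (83.4 to 166 CPM at E12.5 to 153 to 206 CPM at E16.5, log2 fold change 0.51). The log2 ratio of Scn2a to Scn3a in CPM per kb was -2.18 to -1.97 at E12.5 and -0.73 to -0.42 at E16.5, so Scn3a stayed the higher of the pair. The call of Scn3a was lost without any 1 of 6 libraries, with adjusted p from 0.0589 to 0.0996.

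**Figure D3:**
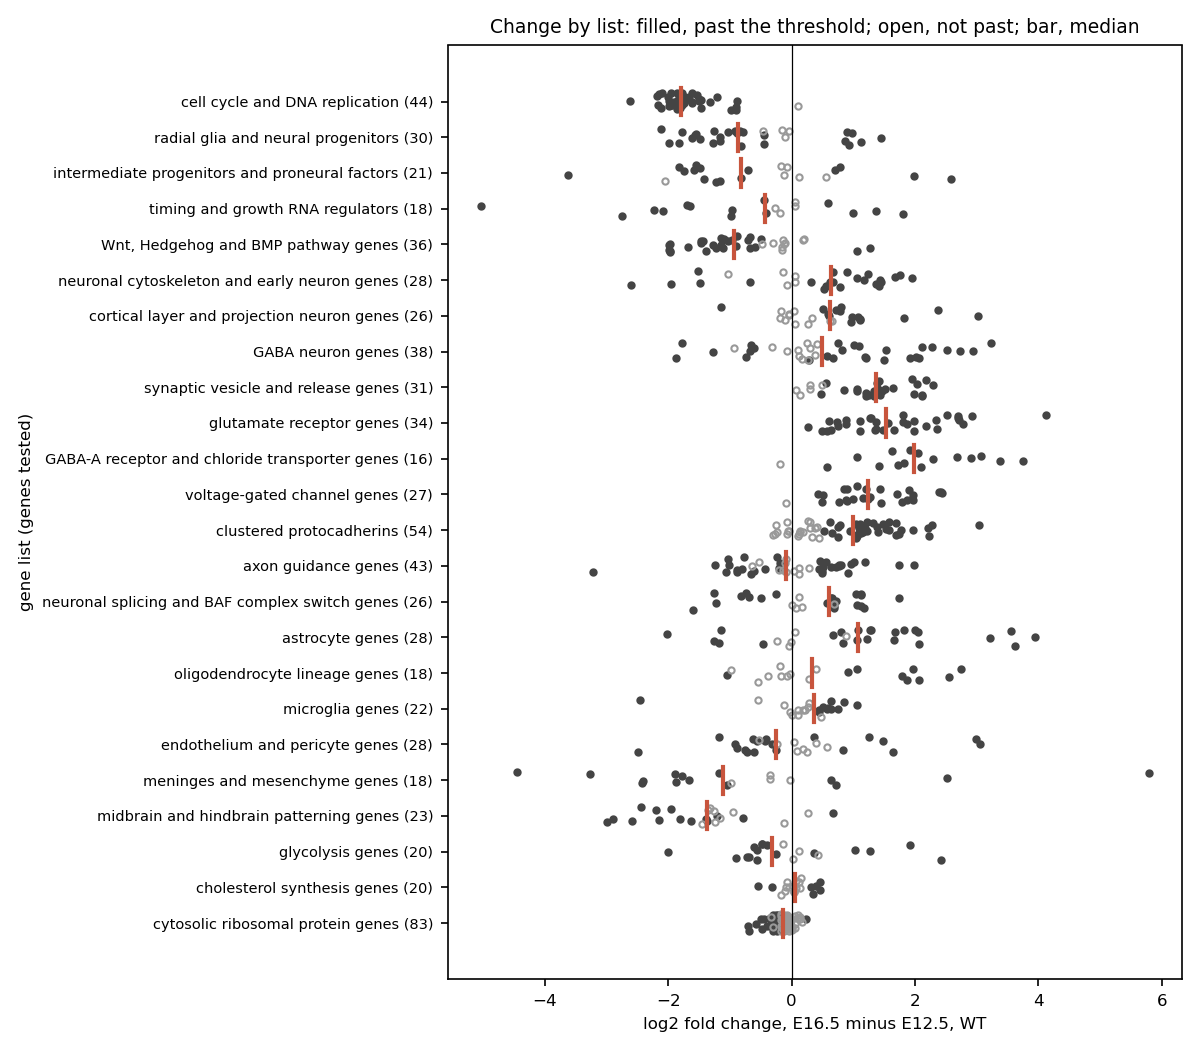
Log2 fold change (E16.5 minus E12.5) of each tested gene in 24 lists, with 1 point per gene (filled where the adjusted p is under 0.05) and a bar at the list's median. The cell cycle genes lie between -2.61 and 0.10, and the 34 glutamate receptor genes are all above 0.

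Some regulators of splicing and chromatin come as pairs, 1 for progenitors and 1 for neurons. Of 26 genes of this list, 13 rose and 8 fell. Ptbp1, which represses neuronal exons in progenitors, measured 341, 279, 214 and 249 CPM at E12.5 and 84.8, 74.4, 101 and 95.3 CPM at E16.5 (log2 fold change -1.605, SE 0.147, adjusted p = 2.63e-05), whereas its neuronal relative Ptbp2 was at 279, 351, 379 and 351 CPM at E12.5 and 335, 379.8, 349 and 368 CPM at E16.5 (log2 fold change 0.08, adjusted p = 0.509). The log2 ratio of Ptbp2 to Ptbp1, in CPM per kb, was at most 0.47 in the E12.5 libraries and at least 1.43 in those of E16.5. In the BAF chromatin remodelling complex, the progenitor subunit Actl6a fell from 94.7 to 112 CPM at E12.5 to 40.0 to 49.8 CPM at E16.5 (log2 fold change -1.23) and the neuronal subunit Actl6b rose from 47.3 to 108 CPM at E12.5 to 146 to 179 CPM at E16.5 (log2 fold change 1.05). Their log2 ratio, Actl6b over Actl6a in CPM per kb, was -1.63 to -0.68 at E12.5 and 0.92 to 1.53 at E16.5. The subunit Ss18 fell (log2 fold change -0.81) and its neuronal counterpart Ss18l1 rose (log2 fold change 0.69). Rest, the repressor of neuronal genes outside neurons, measured 101, 62.3, 43.8 and 51.4 CPM at E12.5 and 27.1, 25.3, 29.8 and 25.5 CPM at E16.5 (log2 fold change -1.26, SE 0.229, adjusted p = 0.00114), highest in the E12.5 libraries with the most mesenchyme RNA.

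The core of the RE1 site, the element that the repressor Rest binds, was searched in the same windows on both strands. It was in 12 of 32851 windows, too few for a comparison of groups. Among the 15553 windows of tested genes, it was in 7 of the 4834 of genes that rose and in none of the 4856 of genes that fell. The other 2 belonged to Hrh3 and Ogdhl, which did not pass. Of the 7 windows, 2 are overlapping windows of 1 gene that hold the same site. This motif and these genes were chosen after the values were seen. The match and its surroundings are shown for 3 of the genes that rose, with the match in capitals, on either strand. The Sptbn4 and Osbp2 windows each belong to 1 of several annotated start sites of the gene.
Sptbn4, chr7:27396259-27396318, minus strand: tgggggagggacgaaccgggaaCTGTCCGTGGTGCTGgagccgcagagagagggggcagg
Fam163b, chr2:27142538-27142597, minus strand: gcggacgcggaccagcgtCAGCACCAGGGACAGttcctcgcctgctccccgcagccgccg
Osbp2, chr11:3774769-3774828, minus strand: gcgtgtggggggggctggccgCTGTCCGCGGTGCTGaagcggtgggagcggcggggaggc
Sptbn4, a spectrin of the axon initial segment, measured 11.5, 12.8, 25.6 and 15.9 CPM at E12.5 and 130.5, 113, 99.2 and 97.3 CPM at E16.5 (log2 fold change 2.74, SE 0.230, adjusted p = 1.86e-05). Fam163b went from 0.740 to 1.18 CPM at E12.5 to 5.06 to 14.7 CPM at E16.5 (log2 fold change 3.21), and Osbp2, a sterol-binding protein, from 6.64 to 10.1 CPM at E12.5 to 25.6 to 32.4 CPM at E16.5 (log2 fold change 1.87).

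Of 43 axon guidance genes, 17 rose and 15 fell, with a median of -0.09 that became 0.09 without E12.5 replicate 1. Robo3, a receptor that lets commissural axons cross the midline, measured 166, 86.9, 112 and 160.1 CPM at E12.5 and 7.75, 15.7, 15.5 and 17.4 CPM at E16.5 (log2 fold change -3.22, SE 0.278, adjusted p = 2.04e-05). Slit2, the ligand that repels axons from the midline, went from 91.6 to 99.96 CPM at E12.5 to 32.6 to 54.2 CPM at E16.5 (log2 fold change -1.07). Netrin receptor genes went both ways: Unc5a rose from 10.2 to 23.6 CPM at E12.5 to 44.0 to 69.1 CPM at E16.5 (log2 fold change 1.74) and Unc5b fell from 39.6 to 56.3 CPM at E12.5 to 26.6 to 27.7 CPM at E16.5 (log2 fold change -0.88). Of 54 tested clustered protocadherin genes, which give neurons their surface identity, 34 rose and none fell (median 0.99). Pcdhgc4 went from 9.87 to 16.6 CPM at E12.5 to 32.3 to 42.7 CPM at E16.5 (log2 fold change 1.58), while Pcdhgc3 stayed at 37.4, 31.6, 34.4 and 32.3 CPM at E12.5 and 33.3, 28.9, 34.1 and 33.1 CPM at E16.5 (log2 fold change -0.07, adjusted p = 0.497). Members of a protocadherin cluster share constant exons, so the counts of single members are uncertain.

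Genes of astrocytes rose in most cases, 18 of 28, and 5 fell (median 1.07). Slc6a11, a GABA transporter, measured 3.52, 5.31, 11.2 and 5.49 CPM at E12.5 and 73.8, 92.3, 65.4 and 66.9 CPM at E16.5 (log2 fold change 3.55, SE 0.295, adjusted p = 1.76e-05). Hepacam, an adhesion protein of astrocyte endfeet, went from 0.513 to 1.48 CPM at E12.5 to 11.3 to 15.6 CPM at E16.5 (log2 fold change 3.94). Gfap, the filament of mature astrocytes, stayed low at 0.123, 0.126, 0.414 and 0.110 CPM at E12.5 and 5.10, 1.81, 1.55 and 1.07 CPM at E16.5 but passed (log2 fold change 3.62, SE 0.645, adjusted p = 0.00101). Its log2 fold change was 4.24 without E12.5 replicate 3 and 2.96 without E16.5 replicate 1. The genes that fell were Thbs1, Gpc4, Gpc6, Chrdl1 and Sparc. Thbs1, a thrombospondin also made by mesenchyme, went from 64.0 to 184 CPM at E12.5 to 23.0 to 31.4 CPM at E16.5 (log2 fold change -2.01), highest in E12.5 replicate 1, and changed by -1.42 without E12.5 replicates 1 and 2. In the list of 18 tested oligodendrocyte lineage genes, 8 rose and 1 fell, with a median of 0.33 that became 0.78 without E12.5 replicate 1 (11 higher, 2 lower). A count of 2 lower was also found without any 1 of E12.5 replicates 3 and 4 and E16.5 replicates 2 and 4. Olig1 measured 4.81, 6.77, 5.68 and 7.80 CPM at E12.5 and 43.6, 52.6, 34.8 and 38.7 CPM at E16.5 (log2 fold change 2.75, SE 0.176, adjusted p = 9.43e-06), and Lhfpl3, a gene of precursors, went from 1.604 to 3.20 CPM at E12.5 to 10.8 to 21.5 CPM at E16.5 (log2 fold change 2.55). Pdgfra, the growth factor receptor of precursors that mesenchyme also makes, was at 216, 81.3, 45.6 and 58.0 CPM at E12.5 and 50.1, 52.9, 49.7 and 48.8 CPM at E16.5 (log2 fold change -0.99, adjusted p = 0.0689). E12.5 replicate 1 was the highest of the 8 libraries, and Pdgfra passed as lower without E12.5 replicate 3 (adjusted p = 0.0344) or 4 (adjusted p = 0.0439). With a sex-gene covariate Pdgfra passed as lower too (adjusted p = 0.0392). Without E12.5 replicate 1 the log2 fold change of Pdgfra was -0.29 (adjusted p = 0.166).

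Of 22 microglia genes, 10 rose and 1 fell, with 8 higher and 2 lower without E16.5 replicate 1. The complement genes C1qa, C1qb and C1qc rose with log2 fold changes of 0.75, 0.58 and 0.85, and the purine receptor P2ry12 went from 1.52 to 2.04 CPM at E12.5 to 3.15 to 4.21 CPM at E16.5 (log2 fold change 1.07). Tmem119, known as a microglia marker in the adult brain, went the other way at 42.3, 19.9, 6.51 and 15.6 CPM at E12.5 and 3.60, 3.45, 3.28 and 5.06 CPM at E16.5 (log2 fold change -2.45, SE 0.491, adjusted p = 0.00198), highest in the E12.5 library with the most mesenchyme RNA, and changed by -1.55 without E12.5 replicates 1 and 2. Endothelium and pericyte genes rose in 7 and fell in 13 of 28 cases. Slco1c1 and Cldn5, genes of the blood-brain barrier, were among the 7 that rose, and Slc2a1 was among the 13 that fell. Barrier genes as a set were not tested. Slco1c1, a thyroid hormone transporter, measured 3.76, 3.35, 5.03 and 2.97 CPM at E12.5 and 38.2, 25.8, 32.9 and 27.2 CPM at E16.5 (log2 fold change 3.05, SE 0.190, adjusted p = 9.43e-06), and the tight junction gene Cldn5 went from 26.5 to 32.8 CPM at E12.5 to 81.8 to 87.6 CPM at E16.5 (log2 fold change 1.48). Plvap, a protein of leaky vessels, measured 23.3, 19.98, 11.6 and 19.3 CPM at E12.5 and 3.33, 3.69, 3.78 and 2.40 CPM at E16.5 (log2 fold change -2.49, SE 0.233, adjusted p = 2.94e-05). Rgs5, a pericyte gene, rose from 19.99 to 40.9 CPM at E12.5 to 84.9 to 97.6 CPM at E16.5 (log2 fold change 1.65), and the glucose transporter gene Slc2a1 fell from 106 to 138 CPM at E12.5 to 68.6 to 77.9 CPM at E16.5 (log2 fold change -0.73). Without E12.5 replicates 1 and 2, 8 genes of this list fell.

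Of 16 tested choroid plexus genes, 7 rose and 3 fell, and Ttr, the thyroxine carrier made by this tissue, went from 82.7 to 167 CPM at E12.5 to 403 to 788 CPM at E16.5 (log2 fold change 2.40). The largest rise of all tested genes was in Ptgds, a prostaglandin synthase of the leptomeninges (ENSMUSG00000015090.13, chromosome 2, 25466709 to 25470046, minus strand). It measured 0.679, 0.885, 8.70 and 1.06 CPM at E12.5 and 138, 135, 137 and 194 CPM at E16.5 (log2 fold change 5.79, SE 0.621, adjusted p = 5.7e-05), with E12.5 replicate 3 above the other 3 of its group, and without that library the log2 fold change was 7.38. Mesenchyme genes as a list went the other way: 10 of 18 fell and 4 rose. Col1a1, a fibrillar collagen, measured 876, 645, 443 and 639 CPM at E12.5 and 104, 101, 140.3 and 145.2 CPM at E16.5 (log2 fold change -2.41, SE 0.208, adjusted p = 2.05e-05). Twist1, a transcription factor of cranial mesenchyme, measured 191, 81.1, 22.8 and 54.5 CPM at E12.5 and 2.45, 4.05, 4.90 and 4.53 CPM at E16.5 (log2 fold change -4.45, SE 0.630, adjusted p = 0.000265), and changed by -3.73 without E12.5 replicate 1. Slc6a13, a transporter of the leptomeninges, rose with Ptgds (3.09 to 9.94 CPM at E12.5 to 28.2 to 45.8 CPM at E16.5, log2 fold change 2.52). Without E12.5 replicates 1 and 2, 8 of 18 genes of the list fell and 5 rose, and its median was -0.65 against -1.11 with all libraries. Any other tissue dissected with the brain cannot be told apart from its stage here.

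The first red cells of the embryo carry embryonic globins, which later red cells replace with adult ones. Hbb-y, the embryonic beta-like globin, measured 2916, 2366, 4872 and 1158 CPM at E12.5 and 0.408, 2.42, 2.48 and 6.79 CPM at E16.5 (log2 fold change -9.87, SE 0.746, adjusted p = 1.36e-05). Hba-x, the embryonic alpha-like globin, measured 564, 333, 559 and 288 CPM at E12.5 and 0.136, 0.484, 1.36 and 2.13 CPM at E16.5 (log2 fold change -8.72, SE 0.474, adjusted p = 8.65e-06). Both were highest at E16.5 in replicate 4, without which the log2 fold changes were -10.6 and -9.32. The adult genes Hba-a1 and Hbb-bs did not pass (-1.23 and 0.82, adjusted p = 0.0558 and 0.379). They are near-identical to their neighbours Hba-a2 and Hbb-bt, so their counts are uncertain. Without E12.5 replicate 4, Hba-a1 passed as lower (log2 fold change -1.53, adjusted p = 0.0128). Hba-a1 also passed as lower with 12 WT libraries or 16 libraries of both genotypes in 1 fit (adjusted p = 0.0419 and 0.0437). Without E12.5 replicate 3, the library with the most blood RNA, Hbb-bs passed as higher (log2 fold change 2.40, adjusted p = 0.00151). None of 15 tested blood genes rose with all libraries, and 9 fell.

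Of 23 tested midbrain and hindbrain patterning genes, 13 fell and 1 rose (median -1.37). Wnt8b, a signal of the cortical hem and dorsal midline, measured 16.7, 36.0, 25.3 and 35.5 CPM at E12.5 and 2.65, 2.78, 3.78 and 6.13 CPM at E16.5 (log2 fold change -2.89, SE 0.321, adjusted p = 6.76e-05). Fgf17, a signal of the midbrain-hindbrain boundary, went from 6.13 to 12.9 CPM at E12.5 to 1.27 to 2.29 CPM at E16.5 (log2 fold change -2.15). The list's median was -1.03 without E16.5 replicate 1, the library lowest in its genes, with 14 fallen, and 8 fell without E12.5 replicates 1 and 2. Of 20 tested genes of monoamine, cholinergic and glycinergic neurons, 17 did not pass, and 3 rather than 1 fell without E16.5 replicate 2 and 2 without E16.5 replicate 4. Among those that did, Slc6a3, the dopamine transporter, rose from 0.247 to 0.8286 CPM at E12.5 to 1.495 to 5.26 CPM at E16.5 (log2 fold change 2.89) and Gata2 fell (log2 fold change -2.22). Thalamus and hypothalamus genes divided into 8 higher and 4 lower of 21, and into 5 higher without E12.5 replicate 2. Calb2, the calcium-binding protein calretinin, rose from 7.47 to 18.8 CPM at E12.5 to 46.5 to 63.5 CPM at E16.5 (log2 fold change 2.12), and Rax, a gene of hypothalamic progenitors, fell from 1.66 to 3.10 CPM at E12.5 to 0.0620 to 0.907 CPM at E16.5 (log2 fold change -2.38).

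Of 36 Wnt, Hedgehog and BMP pathway genes, 25 fell and 2 rose (median -0.93). The Hedgehog ligand gene Shh measured 13.8, 13.3, 12.9 and 17.4 CPM at E12.5 and 2.58, 5.87, 1.43 and 4.73 CPM at E16.5 (log2 fold change -1.97, SE 0.348, adjusted p = 0.000944). Its signal transducer Smo fell from 115 to 189 CPM at E12.5 to 51.0 to 66.0 CPM at E16.5 (log2 fold change -1.39) and the co-receptor Boc from 82.4 to 110.0 CPM at E12.5 to 33.0 to 41.3 CPM at E16.5 (log2 fold change -1.47). Gli3, which encodes a transcription factor of the pathway, went from 109.7 to 148 CPM at E12.5 to 24.0 to 43.1 CPM at E16.5 (log2 fold change -1.98). Those that rose were Bmp6 (log2 fold change 1.06) and Id2 (log2 fold change 1.27), an inhibitor of bHLH factors, while its relative Id3 fell (log2 fold change -1.47). The count of lower genes was 19 without E12.5 replicates 1 and 2, with a median of -0.67.

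Of 26 tested imprinted genes, 10 rose and 10 fell. Meg3, a noncoding RNA expressed from the maternal allele, measured 1001, 891, 1319 and 1227 CPM at E12.5 and 3116, 4129, 2746 and 2984 CPM at E16.5 (log2 fold change 1.55, SE 0.158, adjusted p = 4.37e-05). Dlk1, its paternally expressed neighbour, went from 179.5 to 325 CPM at E12.5 to 35.5 to 75.1 CPM at E16.5 (log2 fold change -2.09). Grb10, a growth inhibitor, measured 992, 754, 551 and 657 CPM at E12.5 and 133, 169, 190.0 and 211 CPM at E16.5 (log2 fold change -2.07, SE 0.194, adjusted p = 2.94e-05), highest in E12.5 replicate 1. H19 measured 1844, 765, 429.8 and 654 CPM at E12.5 and 176, 211, 242 and 331 CPM at E16.5 (log2 fold change -1.94, SE 0.413, adjusted p = 0.00272), with the same replicate highest, and its log2 fold change was -1.18 without E12.5 replicates 1 and 2. Rasgrf1, an exchange factor of neurons, rose from 1.20 to 3.08 CPM at E12.5 to 15.6 to 22.4 CPM at E16.5 (log2 fold change 3.32).

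In the brain matrix list, all 23 tested genes passed, 9 higher and 14 lower. Hapln1, a link protein also made by cartilage, measured 20.4, 13.2, 7.16 and 11.3 CPM at E12.5 and 0.680, 0.907, 0.496 and 1.07 CPM at E16.5 (log2 fold change -4.03, SE 0.369, adjusted p = 2.61e-05). It was highest in the E12.5 library with the most mesenchyme and cartilage RNA. Bcan, the proteoglycan brevican, went from 3.09 to 14.0 CPM at E12.5 to 58.3 to 74.2 CPM at E16.5 (log2 fold change 3.22), and Tnr, tenascin R, from 4.94 to 12.3 CPM at E12.5 to 43.6 to 66.0 CPM at E16.5 (log2 fold change 2.69). Fibronectin (Fn1), a mesenchyme product, fell from 336 to 722 CPM at E12.5 to 142 to 210.4 CPM at E16.5 (log2 fold change -1.501). The median of the list, -0.65, became -0.39 without E12.5 replicates 1 and 2.

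Of 20 glycolysis genes, 11 fell and 5 rose. Hk2, a hexokinase of dividing cells, measured 43.1, 45.8, 25.5 and 42.6 CPM at E12.5 and 9.24, 8.35, 10.5 and 10.9 CPM at E16.5 (log2 fold change -2.01, SE 0.185, adjusted p = 2.65e-05), while Hk1 rose from 78.1 to 89.7 CPM at E12.5 to 155 to 185 CPM at E16.5 (log2 fold change 1.02). Pfkp, the platelet-type phosphofructokinase, measured 72.6, 75.3, 137 and 101 CPM at E12.5 and 554, 591, 482 and 438 CPM at E16.5 (log2 fold change 2.42, SE 0.202, adjusted p = 1.81e-05). The neuronal enolase Eno2 went from 17.03 to 25.9 CPM at E12.5 to 63.3 to 90.9 CPM at E16.5 (log2 fold change 1.93), and Eno1 from 520.0 to 610.0 CPM at E12.5 to 398 to 433 CPM at E16.5 (log2 fold change -0.48). The log2 ratio of Eno2 to Eno1 in CPM per kb was -5.59 to -4.79 at E12.5 and -3.24 to -2.60 at E16.5, so Eno1 stayed the higher of the pair. Of 20 cholesterol synthesis genes, 5 rose and 2 fell, none by 2-fold, and 1 fell without any 1 of 4 libraries (E12.5 replicates 2 and 4, E16.5 replicates 1 and 3). Dhcr7, the gene deleted in the KO brains, measured 66.1, 71.6, 65.4 and 72.6 CPM at E12.5 and 69.3, 66.1, 63.8 and 61.2 CPM at E16.5 and did not pass (log2 fold change -0.08, adjusted p = 0.283). The reelin and lipoprotein receptor gene Lrp8 rose from 107 to 213 CPM at E12.5 to 286 to 337 CPM at E16.5 (log2 fold change 0.91).

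Among 83 tested ribosomal protein genes, 31 fell and 1 rose, with a median of -0.14, and none changed by 2-fold. Without E12.5 replicates 1 and 2, 13 fell, and 10 fell when 16 libraries of both genotypes were fitted together. Rps2 went from 719 to 843 CPM at E12.5 to 460.0 to 524 CPM at E16.5 (log2 fold change -0.71). Many of these genes have processed copies in the genome that could take reads. Of 13 protein genes encoded by mitochondria, 4 rose and none fell (median 0.31, and 0.14 without E16.5 replicate 2). The share that rose, 30.8%, was near the 29.2% of all genes. Among the 4 was mt-Cytb, from 2007 to 2168 CPM at E12.5 to 2556 to 3113 CPM at E16.5 (log2 fold change 0.47). Of 13 tested immediate early genes, 4 (30.8%) rose and 5 (38.5%) fell, against 29.2% and 30.0% of all genes. Without E12.5 replicate 2 or 4 or without E16.5 replicate 1, 2 rose. Npas4, which responds to neuronal activity, went from 1.52 to 2.96 CPM at E12.5 to 9.54 to 13.6 CPM at E16.5 (log2 fold change 2.46), while Ier2 fell from 22.0 to 31.2 CPM at E12.5 to 9.07 to 12.7 CPM at E16.5 (log2 fold change -1.32). Of 23 tested neurotrophic and hormone receptor genes, 7 (30.4%) rose and 3 fell (median 0.07), and 5 fell without E12.5 replicate 3 and 7 with a sex-gene covariate. Thra, a thyroid hormone receptor, measured 206, 248, 345 and 289.6 CPM at E12.5 and 814, 649, 644 and 644 CPM at E16.5 (log2 fold change 1.34, SE 0.153, adjusted p = 7.91e-05), and Ntrk3, the neurotrophin 3 receptor, rose from 37.4 to 76.3 CPM at E12.5 to 159.5 to 193 CPM at E16.5 (log2 fold change 1.62).

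Among genes past the threshold whose mean was 5 CPM or more and whose groups did not overlap, those with the largest rise in fold after Ptgds were Gda, Sla, Slc6a7, B230209E15Rik, Caln1 and Dync1i1. Sla, an adaptor protein (ENSMUSG00000022372.14, chromosome 15, 66780819 to 66831829, minus strand), measured 2.28, 2.66, 4.26 and 1.69 CPM at E12.5 and 103, 46.2, 85.2 and 67.1 CPM at E16.5 (log2 fold change 4.82, SE 0.327, adjusted p = 1.1e-05). Slc6a7, a proline transporter of excitatory terminals, measured 0.864, 0.948, 3.08 and 1.28 CPM at E12.5 and 37.1, 42.1, 33.6 and 33.7 CPM at E16.5 (log2 fold change 4.57, SE 0.314, adjusted p = 1.1e-05). Dync1i1, a dynein intermediate chain of neurons, went from 3.08 to 5.56 CPM at E12.5 to 44.3 to 107 CPM at E16.5 (log2 fold change 4.16), with E16.5 replicate 2 lowest of its group. Among the same genes, Hbb-y, Hbb-bh1, Barx1, Hba-x and Pax1 had the 5 largest fitted falls, and the fitted value of Pax1 depends on the prior count. Pax1, a factor of cartilage and pharyngeal pouches, measured 29.7, 14.4, 1.598 and 7.03 CPM at E12.5 and had 0 counts in the 4 E16.5 libraries, which is at least 274-fold lower against a floor of 3 counts over that group. Without E12.5 replicate 1, the library highest in muscle, cartilage and skin genes, the limit was 159-fold, and Pax1 did not pass with no filter on low counts (adjusted p = 0.0716).

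**Figure D4:**
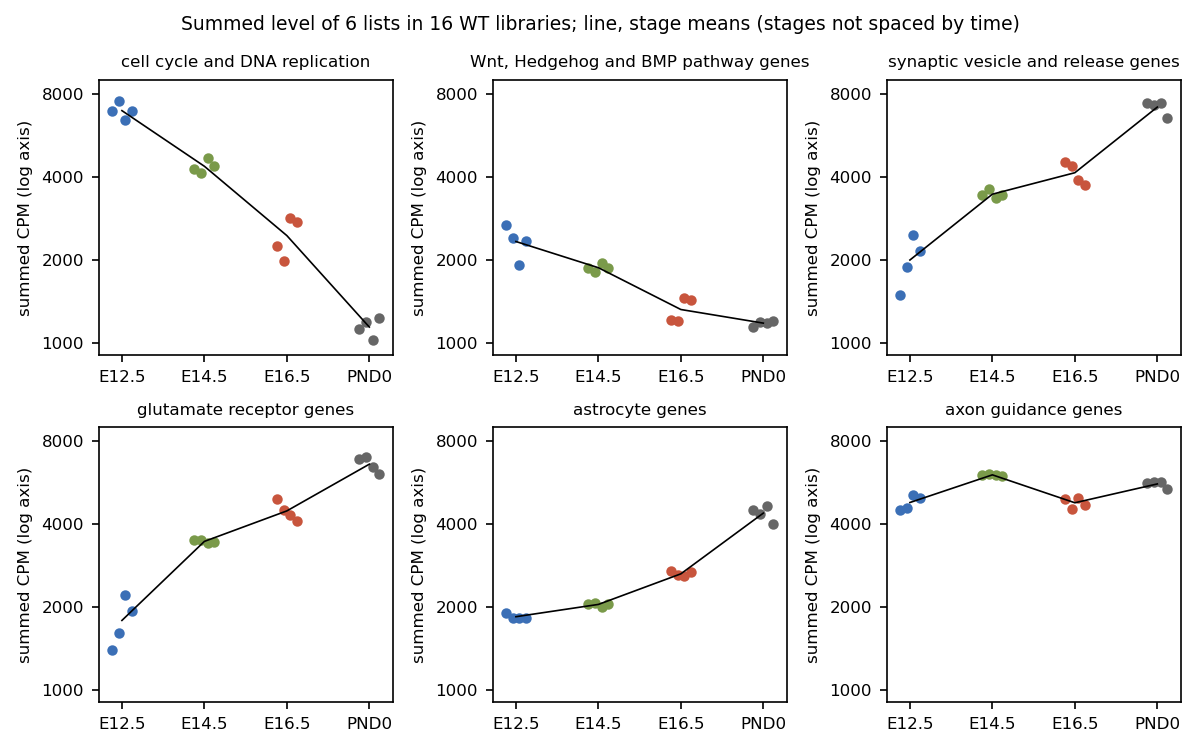
Summed CPM (log axis, 1 TMM scaling over 16 WT libraries) of 6 lists at E12.5, E14.5, E16.5 and PND0, with 1 point per library and a line through the stage means. The cell cycle sum falls at each stage, from 6418 to 7547 CPM at E12.5 to 1018 to 1232 CPM at PND0, and the synaptic and glutamate receptor sums rise.

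The WT libraries of the other stages give levels beside this step. Each stage was deposited in a table of its own, so a stage cannot be told apart from how its libraries were made, and library properties at E14.5 and PND0 were not compared here. With 16 WT libraries scaled together, the cell cycle list summed to 6418 to 7547 CPM at E12.5, 4144 to 4692 CPM at E14.5, 1976 to 2848 CPM at E16.5 and 1018 to 1232 CPM at PND0. Glutamate receptor genes summed to 1398 to 2212, 3413 to 3511, 4110 to 4919 and 6066 to 7038 CPM in the same order. The mesenchyme sum was already at 820 to 932 CPM at E14.5. Axon guidance genes summed to 4491 to 5124 CPM at E12.5, 5985 to 6103 CPM at E14.5 and 4525 to 4985 CPM at E16.5, and ribosomal protein genes to 32271 to 34754, 20392 to 22671 and 28287 to 31599 CPM at the same 3 stages. Neurod6 averaged 66.0 ± 38.5 CPM at E12.5, 214 ± 12.4 CPM at E14.5, 392 ± 80.1 CPM at E16.5 and 220.4 ± 23.6 CPM at PND0 (SD, n = 4 each). Hmga2 averaged 143 ± 78.2 CPM at E12.5, 25.5 ± 2.04 CPM at E14.5, 4.32 ± 1.27 CPM at E16.5 and 1.502 ± 0.627 CPM at PND0 (SD, n = 4 each). Camk2b averaged 37.0 ± 17.04 CPM at E12.5, 127 ± 4.98 CPM at E14.5, 277 ± 78.7 CPM at E16.5 and 561 ± 49.0 CPM at PND0 (SD, n = 4 each).

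The same step in KO brains used 8 other libraries and asked whether the course depends on Dhcr7. Of 17206 genes tested in KO, 4775 (27.8%) were higher and 4484 (26.1%) lower at E16.5. Among 16947 genes tested in both genotypes, 4029 of the 5004 that rose in WT also rose in KO, 80.5% of the WT genes and 85.9% of the 4691 KO genes, and none fell. Of 5111 that fell in WT, 3792 also fell in KO, 74.2% of the WT genes and 84.8% of the 4474 KO genes, and 2 rose (Marveld2 and Nhsl2). Across these genes, which are not independent replicates, the log2 fold changes had a Pearson r of 0.918. For 3 genes picked after their values were seen, Ccnd1 changed by -2.61 in WT and -2.74 in KO, Hmga2 by -5.03 and -4.57, and Grm5 by 4.12 and 4.17. The 20 cholesterol synthesis genes, Dhcr7 among them, summed to 1802 to 2190 CPM at E12.5 and 2079 to 2324 CPM at E16.5 in WT, and to 2595 to 3180 CPM and 2529 to 2681 CPM in KO, with 1 scaling over 16 libraries. The difference between these sums was not tested. In the test of the difference itself for single genes, the interaction of genotype and stage over 16 libraries, 0 of 18208 genes (0%) passed in edgeR, 1470 had an unadjusted p under 0.05 and the smallest adjusted p was 0.611. DESeq2 called 2 genes, Gstm1 and Upf3b. Gstm1, a glutathione transferase, went from 9.82 to 14.6 CPM at E12.5 to 20.02 to 25.9 CPM at E16.5 in WT (log2 fold change 0.78), against 1.68 in KO. A p that misses the threshold does not show that the genotypes follow the same course.

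**Figure D5:**
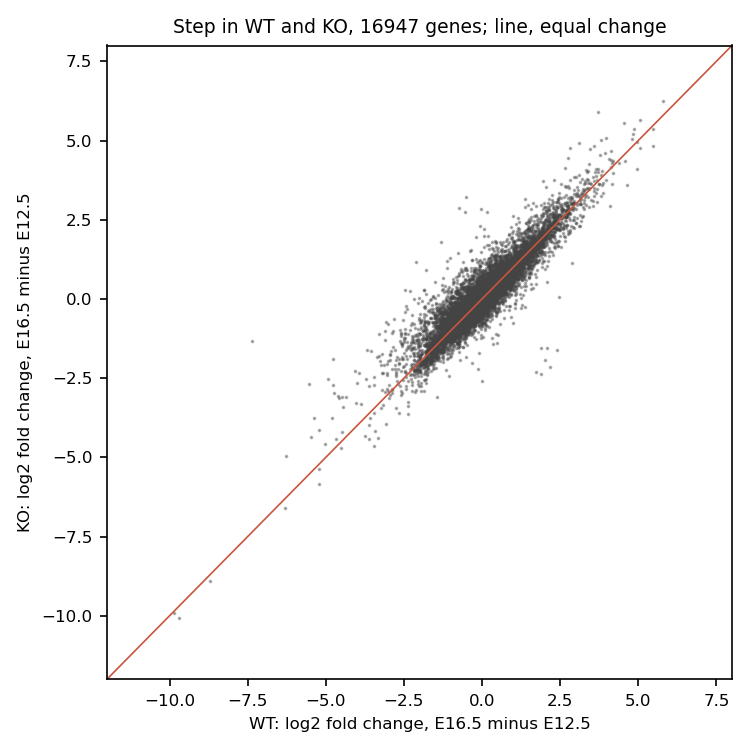
Log2 fold change of the step in WT (horizontal) and in KO (vertical) for the 16947 genes tested in both, 1 point per gene, with the line of equal change. Most points lie along the line (Pearson r 0.918 across genes).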

How the data were processed

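The authors deposited 1 table per stage of raw counts per gene symbol, whole numbers that are not normalized. The submitters' processing notes name HISAT2, SAMtools, featureCounts and DESeq2 and the build mm10. The annotation and the use of strand are not given in the sources used here, so reads of overlapping or antisense genes cannot be told apart. The 8 WT libraries of E12.5 and E16.5 were fitted with edgeR 4.0.16 in R 4.3.3 (TMM scaling, filterByExpr with a minimum count of 10 and a minimum total of 15, robust quasi-likelihood F test). Genes passed at p under 0.05 after Benjamini-Hochberg adjustment over 17301 tested genes. The KO step was fitted alike, and the interaction on 16 libraries with 4 group means. Other calls came from DESeq2 1.42.0 with its own filtering. Of 55291 symbols, 53292 matched GENCODE M21 (GRCm38) by name and 375 through a RefSeq synonym, for positions and longest transcript length.

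The gene lists and members were chosen with earlier results of these data known. Genes are named from a rule: the 10 largest changes each way at a mean of at least 5 CPM without overlap, the 5 largest differences per kb each way, the 5 smallest interaction p, and per list the largest rises and falls, smallest p and highest levels (3 each, or all of up to 12), with gene pairs and Dhcr7. Exceptions, picked after their values were seen, are the promoter genes Ube2c, Cdk1, Top2a, Sptbn4, Fam163b, Osbp2, Hrh3 and Ogdhl, and Chrdl1, Marveld2 and Nhsl2, named to complete a count. Alternatives were RLE factors, no filter, DESeq2, 12 or 16 libraries in 1 fit, a replicate block, a sex-gene covariate, length offsets, a test against 1.5-fold change (glmTreat) and each library left out. The joint omission of E12.5 replicates 1 and 2 was chosen after seeing the data. No 2 libraries of a group were copies. The test of the WT step was checked on simulated counts in which few genes changed, as many up as down, and genes varied independently. That check does not cover a step in which most genes change. A count of 0 allows up to 3 counts, 0.109 to 0.201 CPM by library, for counting error only. Some genes that the rule names are not reported here.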

Additional observations from a re-analysis of the deposited data

Results flagged for a closer look

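Within a group of 4 libraries, 1 library stood apart from the other 3 in 22 cases over 326 groups checked (chance gives about 1 in 20). At E12.5, replicate 1 was alone in its pituitary sum (55.3 CPM), Hox sum (26.3 CPM) and sensory ganglion and neural crest sum (234 CPM), and low for Rorb (5.99 CPM). Replicate 3 was high for Ptgds (8.70 CPM), Cacna1e (60.4 CPM), Gfap (0.414 CPM) and Hbb-bs (820 CPM), and low for Hk2 (25.5 CPM) and Ube2c (95.9 CPM). Replicate 4 had the most counts (27.4 M) and the most detected genes (26810).

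At E16.5, replicate 1 was alone in the share of the ribosomal RNA gene CT010467.1 (3.75%), low for Pou4f1 (1.84 CPM) and high for Nlgn2 (450 CPM), Rasgrf1 (22.4 CPM) and Thra (814 CPM). Replicate 2 was alone in its Hox sum (7.38 CPM) and low for Neurod6 (284 CPM) and Fgf17 (1.27 CPM). Replicate 3 was low for Slc1a3 (179 CPM), and replicate 4 was high for Ptgds (194 CPM).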

How the results depend on the processing

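The count of 10243 genes in the WT step was 8705 to 10991 under every alternative but the test against 1.5-fold change, which called 3632 (2080 higher, 1552 lower). With each library left out it was 9238 to 10468. The replicate block gave 9274, of which 9157 were among the 10243 in the same direction, and in the KO step 8430 against 9259. No gene called with all 8 libraries was called in the opposite direction by any alternative. The KO count was 7921 to 10708 with each library left out, highest without E12.5 KO replicate 1. Ribosomal protein genes summed to 51030 CPM in that library and to 29547 to 33585 CPM in the other E12.5 KO libraries. The interaction count was 0 with the replicate block, 2 in DESeq2 and 0 to 1 with each library left out. The 1 call was Trim66 without E12.5 WT replicate 3. Libraries with the same replicate number did not deviate together (correlations of their deviations -0.16 to -0.0248, against -0.133 to 0.134 for other pairs). Deviations from the mean of only 4 libraries cannot show whether the numbers mark a shared litter or batch. The block changed the call of no named gene.

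Over 151 named genes and 17 alternatives, 2523 values kept their direction and side of the threshold, 28 lost the call, 10 gained one and 6 reversed. The reversed log2 fold changes were small. With each library left out, Cdk6 ranged from -0.019 to 0.246, Lin28b from -0.105 to 0.133, Ptbp2 from -0.0127 to 0.131 and the median of the axon guidance list from -0.113 to 0.0949. The signs opposite to those with all libraries came without E16.5 replicate 3 (Cdk6, and axon guidance at 0.017), E12.5 replicate 1 (Lin28b at -0.0211, Ptbp2 and axon guidance) and E16.5 replicate 2 (Lin28b). Without E12.5 replicates 1 and 2, Lin28b was at -0.00261, Ptbp2 at -0.0321 and axon guidance at 0.0338. Of the lost calls, 11 were of Pou4f1 and 10 of Scn3a. The cause was not tested.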

Other observations

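Sums of other lists differed between single libraries. Sensory ganglion and neural crest genes summed to 234 CPM in E12.5 replicate 1, 117 to 135 CPM in the other E12.5 libraries and 69.2 to 122 CPM at E16.5. Of 14 such genes, 6 were lower and 1 higher at E16.5 with all libraries, with 2 lower and 2 higher without E12.5 replicate 1, 2 lower and 3 higher without E16.5 replicate 1, 1 lower and 1 higher without E16.5 replicate 3, and 2 lower and 1 higher without E16.5 replicate 4. None of the 11 tested eye and retina genes rose and 4 fell with all libraries, with 1 lower and 1 higher without E12.5 replicate 1, and 1 lower without E16.5 replicate 3.

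Of 93 histone genes, 22 passed the filter, and of these 10 were lower and 1 higher (median -0.56). The list holds canonical genes, whose main transcripts carry no poly(A) tail, and also variants such as H2az1 and H2ax. Without E16.5 replicate 1 the median was -0.86, with 10 lower and none higher, and none was higher without E12.5 replicate 2 or E16.5 replicate 3. H4c9 measured 16.97 to 19.2 CPM at E12.5 and 4.11 to 6.46 CPM at E16.5 (log2 fold change -1.76).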
